A study of Mus musculus with 24 samples.

Results

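Fkbp5 and 9 other genes that respond to glucocorticoids in many tissues (Sult1a1, Tsc22d3, Per1, Zbtb16, Klf9, Sgk1, Ddit4, Il1r2 and Pdk4) were followed in the splenic dendritic cells (DCs) of newborn mice. They were taken as the probe sets whose only gene symbol was 1 of these 10 names, which gave 20 probe sets for 10 genes, of 22626 probe sets and 12393 genes in all. The genes were chosen by measured values in part, namely the higher naïve signals of Fkbp5 and Sult1a1 in asthma-at-risk pups, and with earlier results of these data known for the rest. For that reason the naïve values of all 10 genes, and the allergen comparisons that share those arrays, are given here as a description with no test. The genes were tested only in DCs of allergen-stimulated pups. Since earlier results of these data were known, calls there may not be independent results either.

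The 24 samples were Affymetrix mouse expression arrays of splenic cells caught on CD11c magnetic beads at day 14 of life. By the paper's methods all mice were BALB/c, and more than 95% of the caught cells carried CD11c together with MHC-II. The mothers of asthma-at-risk pups had been injected with ovalbumin (OVA) in alum on days 3 and 7 of life and later breathed a 3% OVA aerosol, and were then mated with normal males, whereas normal pups were born to control mothers. Naïve pups received nothing, and stimulated pups got 1 injection of OVA (5 µg) in alum (1 mg), on day 3 by the sample labels and on day 4 by the methods. Of the 15 arrays of Set 1 (AF76 to AF91), naïve pups gave 3 normal and 4 at-risk arrays, and stimulated pups 4 of each. The 9 arrays of Set 2 (AF118 to AF127) came from stimulated pups alone, 4 normal and 5 at-risk, and their RNA was amplified with a NuGEN kit, as the methods state. The methods call the arrays biological replicates, and the sources used here do not give the number of pups behind an array, so p-values measure the spread between these arrays. All at-risk groups thus share a mother primed with OVA, all stimulated groups share OVA with alum, and no group had alum alone.

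The glucocorticoid receptor (Nr3c1) is a transcription factor kept in the cytoplasm by heat shock proteins and immunophilins until it binds hormone. It then enters the nucleus, where it induces some genes through palindromic DNA elements and represses others, among them inflammatory cytokines and chemokines. Fkbp5 codes for an immunophilin that lowers the receptor's affinity for hormone and is itself induced by the receptor, which makes it a part of a feedback loop and a common readout of glucocorticoid action. In DCs glucocorticoids are known to hold back maturation and cytokine production.

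Signal is given as log2 of the RMA signal of a probe set. Each array had a median near 8.1 on this scale (8.09 to 8.22) and a lower quartile of 5.00 to 5.09, and no detection call came with the values. The 9 DC markers (Itgax, H2-Aa, H2-Ab1, Cd74, Flt3, Zbtb46, Batf3, Ccr7 and Cd83) were brighter than at least 76% of probe sets on all 24 arrays, and 0 of them passed the test between maternal groups of stimulated pups. Between stimulated and naïve arrays of Set 1, 1 DC marker rose and 1 fell in normal pups, and 0 passed in at-risk pups. Markers of other cells also moved with the groups. The platelet list (6 of 6 genes measured) averaged 6.04 to 6.42 on naïve at-risk and 6.01 to 6.33 on naïve normal arrays, but 9.65 to 10.63 on the stimulated arrays of Set 1. In Set 2 it averaged 6.55 to 6.88 on stimulated normal and 8.09 to 9.52 on stimulated at-risk arrays, and 6 of 6 platelet genes passed the test. In a bulk sample, fewer cells of a type and less RNA per cell cannot be told apart. Arrays AF79 and AF123 had the lowest median correlation with their own groups (0.990 and 0.993, across probe sets), and AF85 had the highest T cell marker mean of its group (9.45 against 7.97 to 8.56).

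Fkbp5 lies on the minus strand of mouse chromosome 17. The 250 bases before its RefSeq start site (GRCm38.p6, chr17:28486150-28486399) are shown with those of Sult1a1 (chr7:126676419-126676668, minus strand), since both genes were higher in naïve at-risk DCs. The windows of Klf9 (chr19:23140976-23141225, plus strand) and Pdk4 (chr6:5496279-5496528, minus strand) follow because these genes passed the test in stimulated DCs. The window of Sgk1 (chr10:21993640-21993889, plus strand) is shown because it alone among the members held a whole palindrome. Capitals mark the motifs searched on both strands, which were the receptor's palindrome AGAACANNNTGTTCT, its single arm (AGAACA in either orientation) and the E-box CACGTG bound by clock and Myc family factors.
Fkbp5: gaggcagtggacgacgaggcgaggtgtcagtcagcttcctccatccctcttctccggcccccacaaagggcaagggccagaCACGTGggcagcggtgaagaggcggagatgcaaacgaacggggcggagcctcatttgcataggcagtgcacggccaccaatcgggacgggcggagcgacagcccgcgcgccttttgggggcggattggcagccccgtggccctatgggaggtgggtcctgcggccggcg
Sult1a1: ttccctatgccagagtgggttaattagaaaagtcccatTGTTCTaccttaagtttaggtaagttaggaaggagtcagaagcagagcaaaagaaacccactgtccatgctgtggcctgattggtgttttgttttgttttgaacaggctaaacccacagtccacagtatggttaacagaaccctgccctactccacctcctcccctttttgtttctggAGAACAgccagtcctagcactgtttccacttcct
Klf9: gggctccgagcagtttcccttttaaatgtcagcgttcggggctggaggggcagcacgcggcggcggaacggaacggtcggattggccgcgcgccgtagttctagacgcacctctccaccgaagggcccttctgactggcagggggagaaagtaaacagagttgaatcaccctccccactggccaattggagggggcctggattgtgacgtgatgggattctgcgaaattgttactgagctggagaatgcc
Pdk4: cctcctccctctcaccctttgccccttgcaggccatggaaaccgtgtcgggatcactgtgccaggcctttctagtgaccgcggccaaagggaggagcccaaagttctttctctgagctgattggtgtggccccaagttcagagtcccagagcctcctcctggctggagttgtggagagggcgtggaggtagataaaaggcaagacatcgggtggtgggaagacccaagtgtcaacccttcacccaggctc
Sgk1: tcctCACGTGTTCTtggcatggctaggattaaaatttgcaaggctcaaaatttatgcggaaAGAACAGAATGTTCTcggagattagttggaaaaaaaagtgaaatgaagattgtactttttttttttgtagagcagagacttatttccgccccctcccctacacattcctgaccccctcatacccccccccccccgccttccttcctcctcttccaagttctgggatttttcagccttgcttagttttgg

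The Fkbp5 window held 1 E-box, which begins 169 bases before the start site, and no arm. The Sult1a1 window held 2 arms, which begin 212 and 34 bases before the start. The windows of Klf9 and Pdk4 held none of these letters. The Sgk1 window held the whole palindrome, which begins 189 bases before the start, whose 2 arms begin 189 and 180 bases before it, and another arm 242 bases before it that overlaps an E-box at 246. RefSeq gave 17 start windows for 9 of the 10 members, and Zbtb16 had no entry. Of these 17 windows, 1 held the palindrome, 5 an arm and 4 an E-box. The windows with an arm belonged to Sult1a1, Tsc22d3 and Sgk1 alone, and those with an E-box to Fkbp5, Per1, Sgk1 and Il1r2. Some genes, Sgk1 most of all, gave several windows, so the counts are of windows and not of separate genes. Of all 32851 windows of the same length, 3 held the palindrome (0.00913%), 16.1% an arm and 6.02% an E-box. A match is a run of letters and was not tested as a binding site, and no match says only that the letters are not in the window.

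Fkbp5 was read by 2 probe sets. On 1416125_at, the brighter (mean 10.25, brighter than 73.6% of probe sets), the naïve normal arrays read 10.09, 9.99 and 9.69 and the naïve at-risk arrays 11.56, 11.58, 11.59 and 11.46. The groups did not overlap, and the at-risk arrays lay close together. The means were 11.55 ± 0.06 (SD, n = 4) and 9.92 ± 0.21 (SD, n = 3), a difference of 1.62 on the log2 scale or 3.08-fold. The dimmer 1448231_at read 5.58, 5.49 and 5.48 in naïve normal and 7.54, 7.20, 7.35 and 6.83 in naïve at-risk DCs, again without overlap and with a difference of 1.71. Over the 24 arrays the probe sets had a Pearson correlation of 0.92, and 0.75 after group means were removed.

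After allergen the high level was no longer seen. The Set 1 stimulated at-risk arrays read 9.80, 10.41, 10.80 and 10.18 on 1416125_at, all below the naïve at-risk arrays, with a mean difference of -1.25 on the log2 scale. The stimulated normal arrays of Set 1 read 9.64, 9.60, 9.83 and 9.83, which overlapped the naïve normal arrays, with a mean difference of -0.20 (-0.12 without AF76 and -0.31 without AF79). 1448231_at behaved likewise in at-risk pups, with a difference of -1.08 and no overlap, while in normal pups the difference was 0.21 with overlapping groups. These comparisons share the naïve arrays with the naïve comparison.

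In stimulated pups Fkbp5 could be tested. In Set 2 the normal arrays read 9.75, 9.79, 9.85 and 9.81 and the at-risk arrays 9.97, 10.37, 10.50, 9.93 and 9.87 on 1416125_at. All 5 at-risk arrays were above all 4 normal arrays, while in Set 1 the lowest at-risk array (AF88, 9.80) lay within the normal range. Over the 17 stimulated arrays, with set as a term in limma, Fkbp5 was higher in at-risk DCs by 0.44 ± 0.12 (SE), with an adjusted p of 0.057, which missed the threshold of 0.05. Set 1 alone gave 0.57 ± 0.18 (SE) and Set 2 alone 0.33 ± 0.13 (SE), with limma adjusted p of 0.301 and 0.188, and the difference between sets was -0.25 (adjusted p = 0.594). Fkbp5 did pass the threshold in limma with all 24 arrays in the fit (adjusted p = 0.016), with array weights (0.032), with 1 probe set per gene (0.044), with trend and robust variances (0.049), and without AF88 (0.034), AF123 (0.049) or AF127 (0.049). With 1 array left out, the limma adjusted p of 1416125_at ran from 0.034 to 0.112, and 14 of 17 such fits missed the threshold. 1448231_at gave 0.30 ± 0.12 (SE) and a limma adjusted p of 0.229.

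Ordered by mean, Fkbp5 (1416125_at) was highest in naïve at-risk DCs (11.55), followed by stimulated at-risk DCs of Set 1 (10.30) and Set 2 (10.13), naïve normal DCs (9.92), and stimulated normal DCs of Set 2 (9.80) and Set 1 (9.73). The highest group did not overlap the next, and each other pair of neighbours in this order overlapped. By the methods the sets were preprocessed separately, so the order between sets is open to their scaling.

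**Figure D1:**
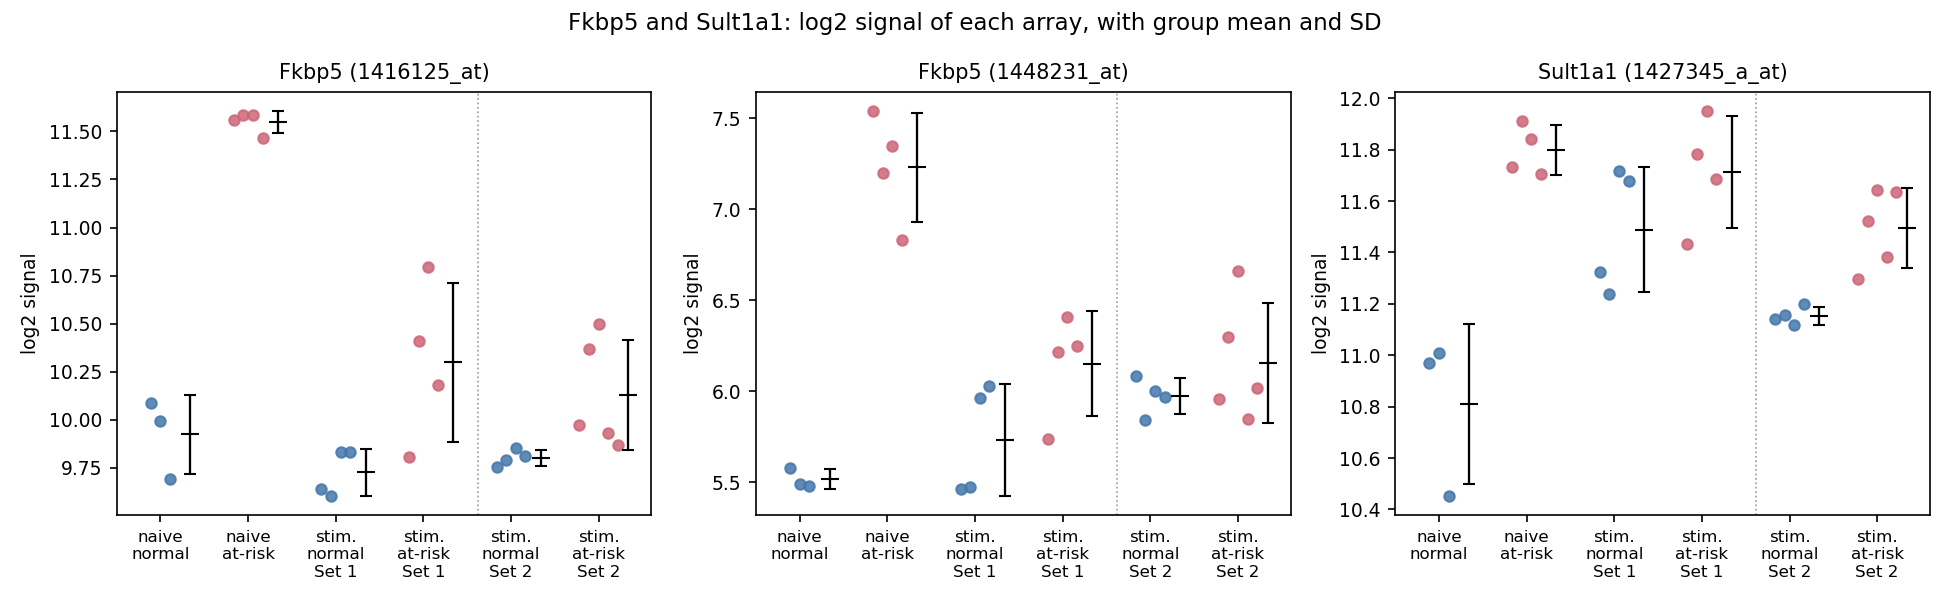
Log2 signal of each array (points) for both probe sets of Fkbp5 and the probe set of Sult1a1, by group, with the group mean and SD (black bars), normal pups in blue, at-risk pups in red and a dotted line between the array sets. The 4 naïve at-risk arrays of Fkbp5 1416125_at sit between 11.46 and 11.59, above all other arrays, and the 5 stimulated at-risk arrays of Set 2 sit above the 4 normal ones.

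Sult1a1, a sulfotransferase that conjugates phenols, was read by 1427345_a_at (mean 11.44). The naïve normal arrays read 10.97, 11.01 and 10.45 and the naïve at-risk arrays 11.73, 11.91, 11.84 and 11.71. The groups did not overlap, and the at-risk mean was higher by 0.99 or 1.98-fold. Unlike Fkbp5, the at-risk level was close to the same after allergen (11.43, 11.78, 11.95 and 11.69, a mean difference of -0.09 with overlapping groups, and 0.0085 without AF88), while all stimulated normal arrays of Set 1 (11.32, 11.24, 11.72 and 11.68) were above the naïve normal arrays, with a mean higher by 0.68. Whether the allergen differences of the maternal groups differ was not tested.

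In Set 2 Sult1a1 read 11.14, 11.16, 11.12 and 11.20 in stimulated normal and 11.30, 11.52, 11.64, 11.38 and 11.64 in stimulated at-risk DCs, without overlap. Limma gave 0.34 ± 0.08 (SE) and an adjusted p of 0.044 for Set 2 alone, past the threshold, and 0.22 ± 0.14 (SE) with an adjusted p of 0.639 for Set 1 alone. Both sets together gave 0.29 ± 0.08 (SE) with an adjusted p of 0.073, which passed without AF86 (0.044) or AF88 (0.040). The other fits with 1 array left out missed the threshold (15 of 17), with a limma adjusted p of up to 0.151. The difference between the effects of the sets was 0.12 ± 0.16 (SE, limma adjusted p = 0.728).

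Pdk4 and Klf9 (1 of its 7 probe sets) were the members that passed the test over both sets in stimulated DCs. The members were chosen with earlier results of these data known, so these calls may not be independent results. Of the 20 member probe sets, 2 passed the test over both sets, both upward, against 1.73% of all 22626 probe sets (1.31% upward and 0.415% downward). Set 1 alone gave 0 calls, beside 0.119% of all probe sets, and Set 2 alone 2 (Sult1a1 and Pdk4), beside 4.62%. The median difference of the 10 genes, 1 probe set each, was -0.05, with 5 above and 5 below 0, and that of all probe sets was -0.01.

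Pdk4 codes for a kinase that inhibits pyruvate dehydrogenase and so turns cells from glucose to fatty acid use. On 1417273_at (mean 6.64) the stimulated normal arrays read 6.83, 6.58, 6.74 and 6.72 in Set 1 and 5.78, 5.997, 5.89 and 5.99 in Set 2. The stimulated at-risk arrays read 8.16, 7.29, 6.84 and 6.96 in Set 1 and 7.16, 8.06, 7.66, 6.90 and 7.02 in Set 2. In both sets all at-risk arrays were above all normal arrays, narrowly in Set 1 (6.84 against 6.83). Limma gave 1.04 ± 0.20 (SE) over both sets with an adjusted p of 0.013, and between 0.0056 and 0.0396 with any single array left out. Set 2 alone gave 1.45 ± 0.22 (SE, adjusted p = 0.0044) and Set 1 alone 0.60 ± 0.24 (SE, adjusted p = 0.448). The effects of the sets differed by 0.85 ± 0.35 (SE), with a limma adjusted p of 0.247 that became 0.043 without AF88.

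Naïve arrays read 5.90, 5.76 and 5.89 in normal and 5.92, 6.25, 6.55 and 6.62 in at-risk DCs for Pdk4, a mean difference of 0.49 without overlap. In Set 1 the stimulated arrays were all above the naïve ones in both maternal groups, with means higher by 0.87 in normal and by 0.98 in at-risk pups.

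Some markers of other cells moved with Pdk4 in some comparisons. Between naïve and stimulated arrays of Set 1, where Pdk4 rose, the stromal mean was 7.26 and 7.30 in normal and 7.18 and 7.34 in at-risk DCs. The endothelial mean was 7.30 and 7.64 in normal and 7.42 and 8.16 in at-risk DCs. The highest Pdk4 array, AF88, also had the highest endothelial (8.66) and stromal (8.20) marker means of the 24 arrays, and in Set 2 the stromal mean was 6.40 to 6.54 in normal and 7.18 to 7.85 in at-risk DCs. The endothelial mean of Set 2 was 7.09 to 7.50 in normal and 7.57 to 8.06 in at-risk DCs. Of 5 endothelial genes 2 rose in the test over both sets, as did 1 of 4 stromal, 2 of 4 erythroid and 6 of 6 platelet genes. Without AF88 the Pdk4 call stood, and its part in the result beyond that, like that of the markers, was not tested.

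**Figure D2:**
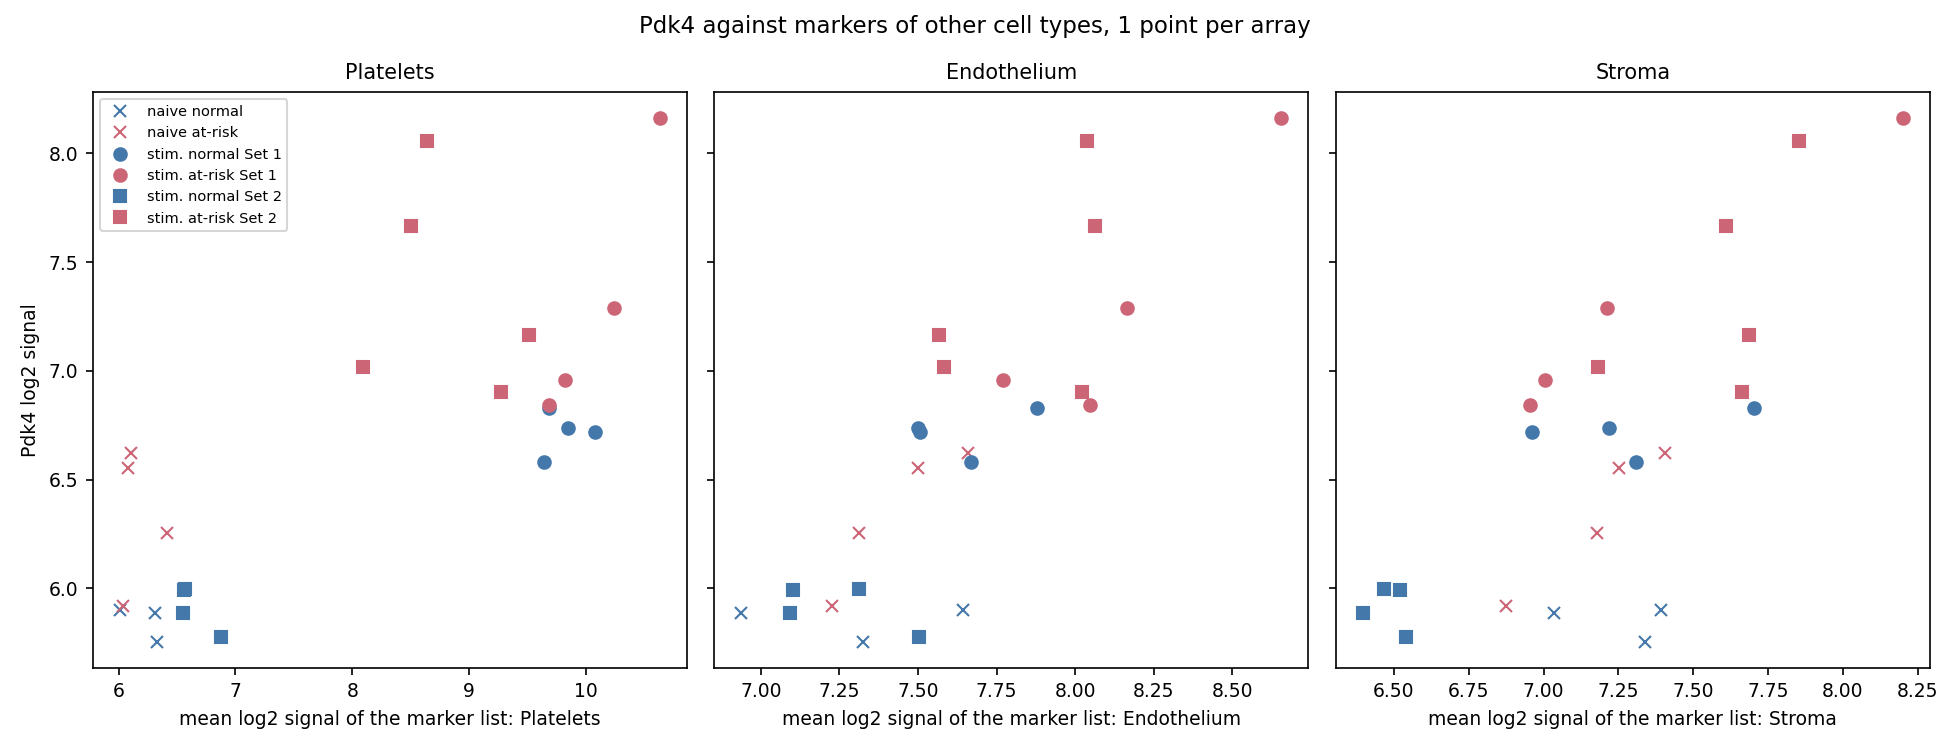
Log2 signal of Pdk4 (y axis) against the mean log2 signal of platelet, endothelial and stromal marker lists (x axes), 1 point per array, normal pups in blue and at-risk pups in red, with crosses for naïve arrays, circles for stimulated arrays of Set 1 and squares for Set 2. The 4 stimulated normal arrays of Set 2 have stromal means of 6.40 to 6.54 and Pdk4 of 5.78 to 5.997, and AF88 (Pdk4 8.16) lies highest on every axis.

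Klf9, a zinc finger transcription factor, was read by 7 probe sets, of which 4 were dim, with means of 5.21 and 5.17 near the lower quartile of the arrays and of 4.24 and 4.09 below it. On 1428288_at (mean 8.27), the brightest, the stimulated normal arrays read 7.95, 7.53, 7.96 and 8.01 in Set 1 and 8.05, 8.05, 8.16 and 8.18 in Set 2. The stimulated at-risk arrays read 8.35, 8.29, 8.35 and 8.24 in Set 1 and 8.68, 8.50, 8.45, 8.16 and 8.19 in Set 2. All at-risk arrays of Set 1 were above the normal ones, while the groups of Set 2 overlapped. Limma gave 0.36 ± 0.08 (SE) over both sets, with an adjusted p of 0.023. The call was lost without AF118 (adjusted p = 0.054), AF119 (0.063) or a term for set (0.062), and without AF85 (7.53), where the difference of 0.31 fell short of the fold threshold. Each set alone also missed it, at 0.44 in Set 1 (adjusted p = 0.179) and 0.29 in Set 2 (0.163).

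The next Klf9 probe set, 1428289_at, gave 0.31 ± 0.09 (SE) with a limma adjusted p of 0.081, without overlap in Set 1, and 1456341_a_at gave 0.32 ± 0.14 (SE) with 0.261. The dimmest 4 gave differences of -0.11 to 0.05. Klf9 did not separate the naïve groups, which read 8.76, 8.28 and 8.65 in normal and 8.41, 8.26, 8.87 and 8.28 in at-risk DCs. All stimulated normal arrays of Set 1 were below the naïve normal ones, with a mean difference of -0.70, while the at-risk arrays overlapped, with a difference of -0.15 that was -0.01 without AF82. The next probe sets were lower in both maternal groups. 1428289_at was lower after allergen without overlap, by -0.74 in normal and -0.51 in at-risk pups, and 1456341_a_at gave -1.26 without overlap in normal and -0.87 with overlap in at-risk pups. Of the dim probe sets, 1422264_s_at was all lower in at-risk pups (-0.39) and overlapped in normal pups (-0.47).

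Tsc22d3 codes for GILZ, a leucine zipper protein that mediates many anti-inflammatory effects of glucocorticoids. Its signal spread most widely in Set 2. On 1420772_a_at (mean 11.46) the 15 arrays of Set 1 lay between 11.42 (AF88) and 12.09, and naïve means were 11.91 in at-risk and 11.89 in normal DCs. In Set 2 the normal arrays read 12.03, 12.09, 11.27 and 10.77 and the at-risk arrays 8.73, 10.37, 11.80, 10.28 and 10.04. AF123 was lowest and AF125 lay within the normal range, so the groups overlapped. Set 2 alone gave -1.30 ± 0.52 (SE) with a limma adjusted p of 0.187, Set 1 alone -0.02 ± 0.12 (SE) with 0.971, and both together -0.69 ± 0.33 (SE) with 0.299. The probe set 1425281_a_at had the same order of groups in Set 2 (-0.70 ± 0.27 SE, limma adjusted p = 0.167). Unlike 1420772_a_at, it was lower after allergen in Set 1 without overlap, by -0.51 in normal and -0.40 in at-risk pups (-0.25 without AF88). The dim 1425557_x_at lay between 6.12 and 6.58 on all arrays, and in Set 1 it was all lower after allergen in at-risk pups (-0.25) and overlapped in normal pups (-0.02). In Set 2 neutrophil markers averaged 12.39 on AF123 and 11.39 to 11.88 on the other arrays. AF125, with the next highest neutrophil mean (11.88), had the highest at-risk Tsc22d3 (11.80). AF123 also had the highest erythroid (11.31) and platelet (9.52) means of Set 2. Its macrophage (11.27), NK cell (9.74) and DC (12.28) means were the lowest of that set. The part of these cells in the Tsc22d3 values was not tested.

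Il1r2, a decoy receptor that binds interleukin 1 without signaling, ran in opposite directions in the sets. The stimulated normal arrays read 6.83, 7.07, 7.22 and 7.35 in Set 1 and 7.76, 7.80, 7.95 and 8.21 in Set 2, and the at-risk arrays 7.33, 7.30, 7.62 and 7.83 in Set 1 and 7.68, 8.01, 7.28, 7.40 and 7.58 in Set 2. The groups overlapped in both sets. The differences were 0.40 ± 0.14 (SE) and -0.34 ± 0.15 (SE), and 0.01 over both sets (limma adjusted p = 0.975). The sets differed by -0.74 ± 0.22 (SE), with a limma adjusted p of 0.102 that became 0.045 without AF124. In Set 1 all neutrophil marker means were higher in stimulated at-risk arrays (12.00 to 12.36) than in normal ones (11.41 to 11.71), and in Set 2 they overlapped. Between naïve and stimulated arrays of Set 1 the neutrophil mean was 12.17 and 11.61 in normal and 12.02 and 12.20 in at-risk DCs. The part of neutrophils in the Il1r2 values was not tested. Naïve arrays read 8.56, 8.79 and 8.88 in normal and 9.08, 8.76, 8.25 and 8.03 in at-risk DCs, and every stimulated array of Set 1 was lower, with mean differences of -1.63 in normal and -1.01 in at-risk pups.

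**Figure D3:**
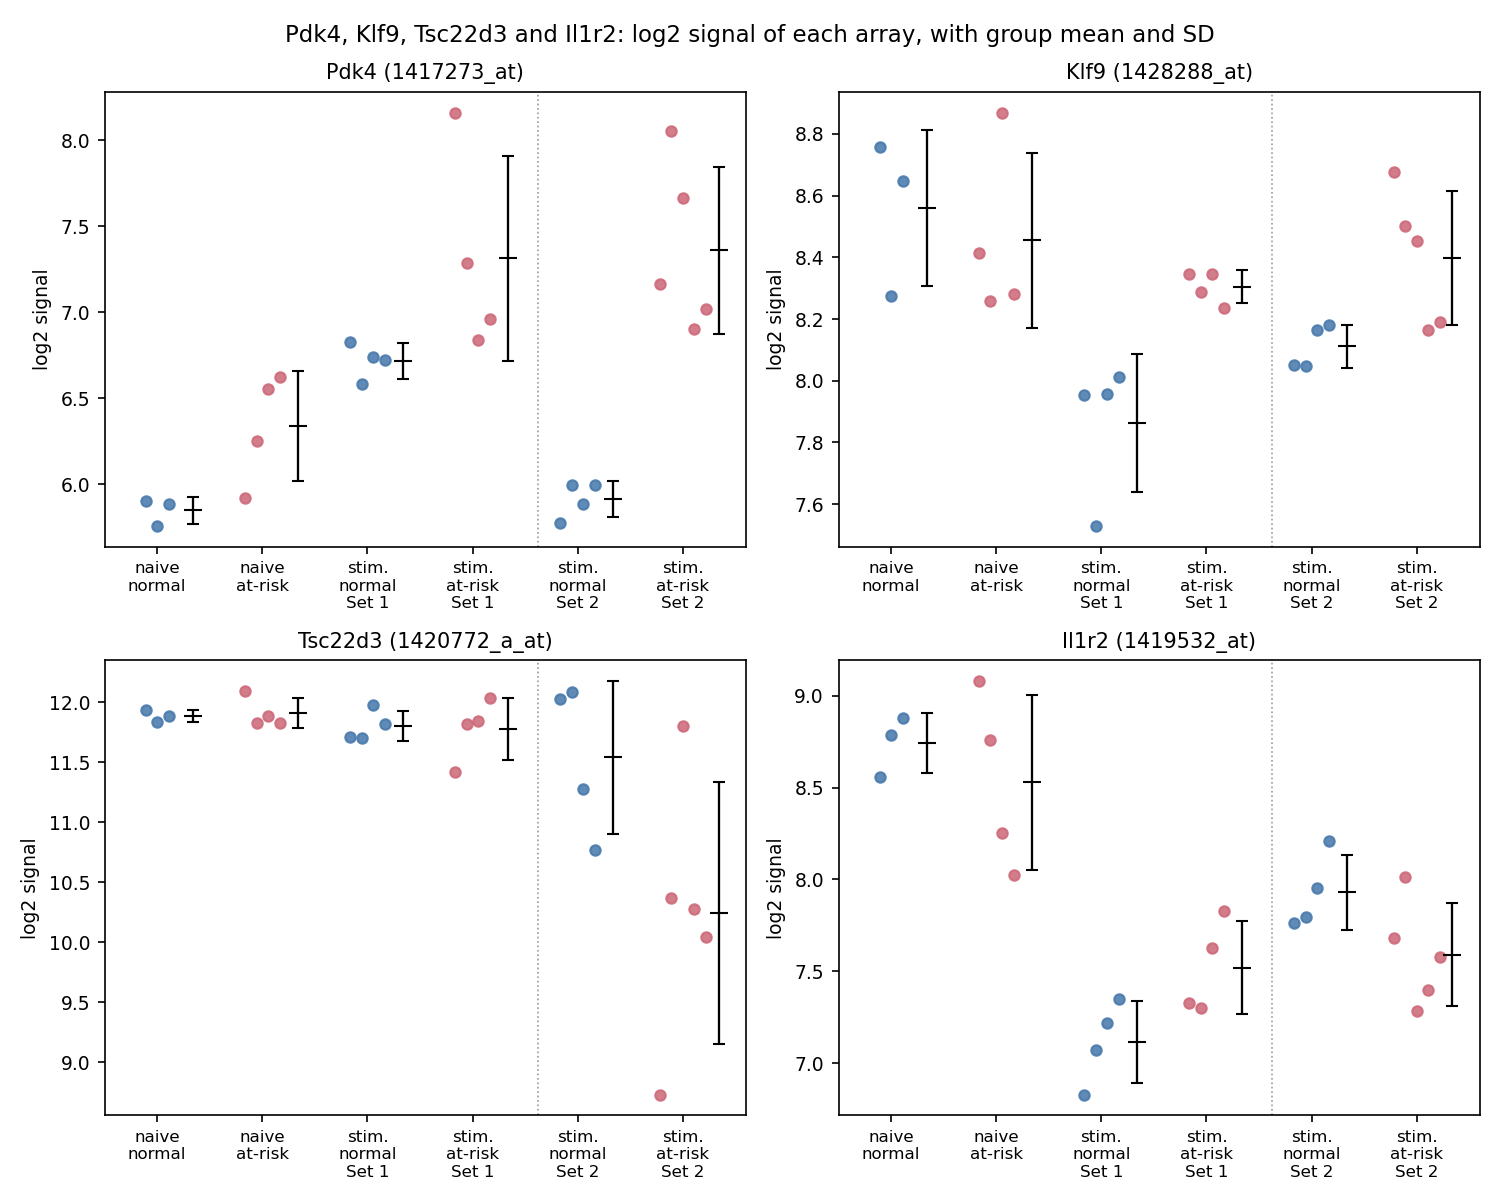
Log2 signal of each array (points) for Pdk4, Klf9, Tsc22d3 and Il1r2 by group, with the group mean and SD (black bars), normal pups in blue, at-risk pups in red and a dotted line between the array sets. The stimulated at-risk arrays of Pdk4 lie above the normal ones in both sets, and Tsc22d3 of stimulated at-risk arrays in Set 2 runs from 8.73 to 11.80.

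Zbtb16 codes for the transcription factor PLZF, which is known for its role in innate-like lymphocytes as well as for its induction by steroid hormones. Its brighter probe set, 1419874_x_at, is of a type whose probes can bind more than the named transcript, and its mean was 6.39. The naïve normal arrays read 6.54, 6.53 and 6.52 and the naïve at-risk arrays 7.26, 6.92, 7.22 and 6.90, a mean difference of 0.54 without overlap. All stimulated arrays of Set 1 lay below the naïve ones of the same maternal group, with differences of -0.35 in normal and -0.78 in at-risk pups. Stimulated at-risk and normal arrays differed by 0.12 in Set 1 and -0.35 ± 0.11 (SE) in Set 2 (limma adjusted p = 0.818 and 0.115), overlapping in both. The other probe set, 1427638_at, lay between 4.34 and 4.84 on all arrays, below the lower quartile. T cell markers averaged 9.37 to 9.45 in naïve at-risk and 9.78 to 10.02 in naïve normal DCs, and their part in the Zbtb16 values was not tested.

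Ddit4, which restrains mTORC1 under stress, was among the brightest 2% of probe sets (mean 12.98). The naïve normal arrays read 13.06, 13.01 and 12.60 and the naïve at-risk arrays 13.32, 13.12, 13.32 and 13.16, a mean difference of 0.34 without overlap that was 0.20 without AF79 (12.60). In stimulated DCs the difference was 0.10 in Set 1 and -0.34 in Set 2 (limma adjusted p = 0.858 and 0.213), with overlap in both.

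Per1, a repressor of the circadian clock, was lower in stimulated than in naïve DCs of both maternal groups without overlap, with differences of -0.69 in normal and -0.68 in at-risk pups, the latter -0.44 without AF88. The naïve arrays lay between 9.85 and 10.28 and the stimulated arrays of Set 1 between 8.61 and 9.74, with AF88 lowest. At-risk and normal stimulated DCs differed by -0.12 ± 0.14 (SE, limma adjusted p = 0.667).

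Sgk1, a kinase that regulates ion transport and cell survival, varied least of the bright members. It lay between 12.41 and 13.04 on all 24 arrays, and limma gave a difference of -0.11 ± 0.05 (SE) between stimulated maternal groups, with an adjusted p of 0.273. Stimulated arrays of Set 1 were below naïve arrays without overlap, with differences of only -0.10 in normal and -0.12 in at-risk pups.

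Counted over all 20 probe sets, 6 had naïve at-risk arrays all above the naïve normal arrays and 0 all below, where 11.1% of all probe sets did not overlap (5.74% all above and 5.39% all below). These were both of Fkbp5 and those of Sult1a1, Zbtb16 (1419874_x_at), Ddit4 and Pdk4, and since the naïve comparison chose part of the list, the count is a description. In stimulated DCs 3 of 20 did not overlap in Set 1 (2 of Klf9 and that of Pdk4), beside 6.23% of all probe sets (2.76% above and 3.47% below), and 3 of 20 in Set 2 (Fkbp5 1416125_at, Sult1a1 and Pdk4), beside 10.1% (5.67% and 4.47%), all with at-risk arrays higher. Between stimulated and naïve arrays of normal pups, 2 were all higher and 8 all lower, beside 21.9% of all probe sets (11.6% higher and 10.3% lower), and in at-risk pups 1 was all higher and 11 all lower, beside 17.7% (8.89% and 8.84%). These allergen counts use the naïve arrays that took part in the choice, and some genes count with several probe sets, so they too are a description. The maternal effect differed between sets for 0 of 20 probe sets by limma (3 at an unadjusted p under 0.05), beside 1.79% of all.

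**Figure D4:**
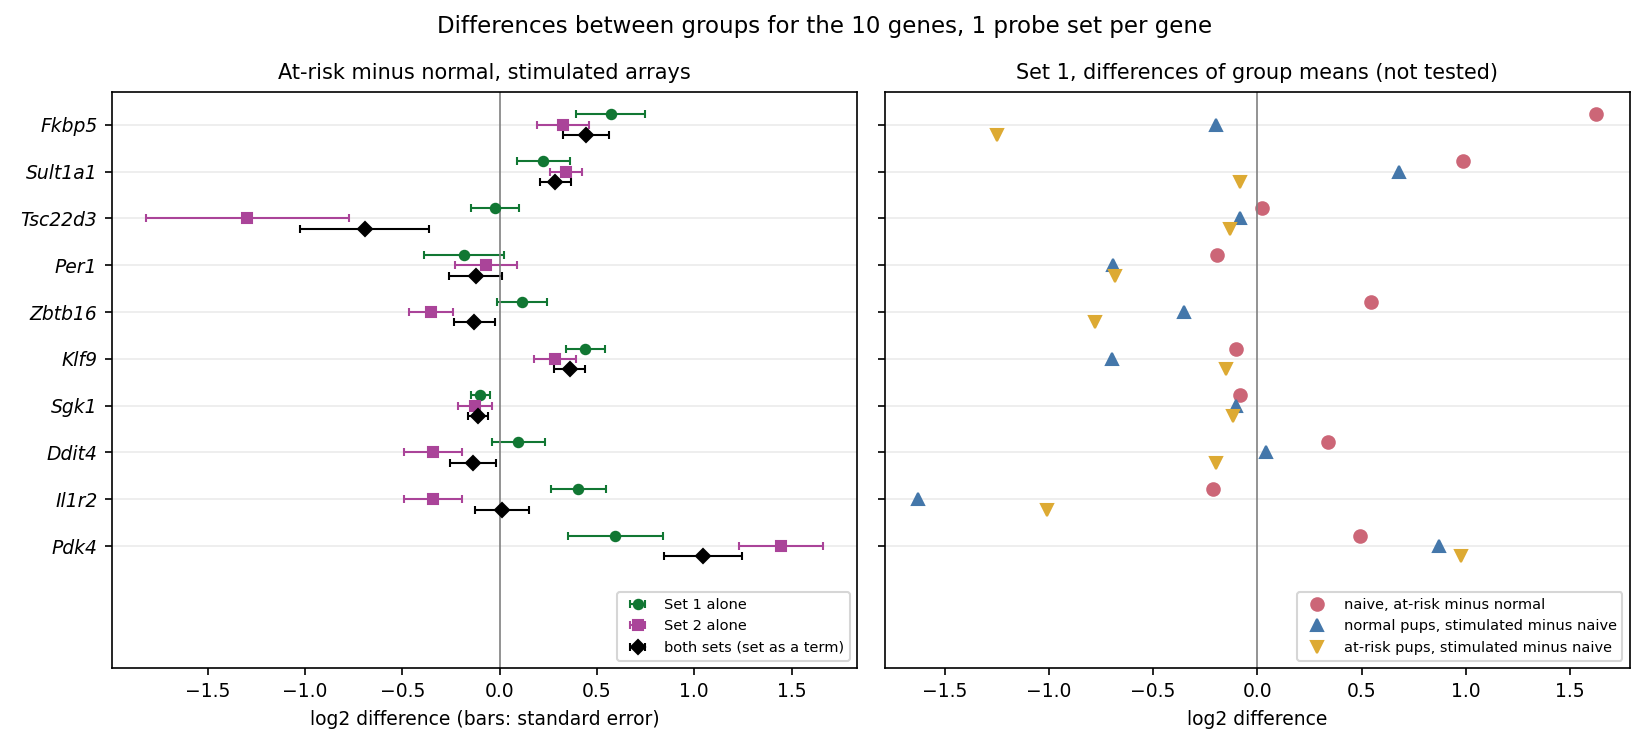
Log2 differences for the 10 genes, 1 probe set per gene. The left panel gives at-risk minus normal in stimulated arrays of Set 1 (green circles), Set 2 (purple squares) and both (black diamonds), with standard errors, and the right panel gives the differences of Set 1 group means that were not tested. Pdk4 has the highest value of both sets together (1.04), and Fkbp5 the highest naïve difference (1.62).

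The non-member genes whose signal ran most like Fkbp5 (1416125_at) over the 15 arrays of Set 1 were Rcan1 (Pearson's r = 0.91), Gzmc (0.91), Slc27a2 (0.90), Siglece (0.89) and Banp (0.88), of 12392 other genes with 1 probe set each. These points share 4 group means, so r reflects mainly which groups were high. Slc27a2 averaged 6.93 in naïve normal, 7.99 in naïve at-risk, 6.16 in stimulated normal and 7.07 in stimulated at-risk DCs of Set 1. Over the 9 arrays of Set 2, which did not choose them, r was 0.72 for Banp, 0.63 for Gzmc, 0.52 for Slc27a2, -0.02 for Siglece and -0.47 for Rcan1. Among the members r over Set 1 was 0.82 for Zbtb16, 0.72 for Ddit4 and 0.61 for Sult1a1, and it was -0.20 for Pdk4. Over Set 2 it was -0.22 for Zbtb16, 0.02 for Ddit4, 0.72 for Sult1a1 and 0.86 for Pdk4. The arrays of Set 2 share group means as well, and Fkbp5, Sult1a1 and Pdk4 were all higher on its at-risk arrays. For that reason r over Set 2 also reflects which group was high. The values of Set 1 include the naïve arrays that took part in the choice of members.

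The wider pathway was read from lists of the receptor with its cofactors (16 of 23 genes measured), of genes that glucocorticoids commonly induce (33 of 36) and of genes they commonly repress (22 of 22). The receptor itself, Nr3c1, had a mean of 11.59 and passed no test. It lay between 11.42 and 11.55 in naïve normal and between 11.57 and 11.69 in naïve at-risk DCs (limma, 0.14 ± 0.07 SE, adjusted p = 0.329), and differed by -0.10 ± 0.08 (SE, adjusted p = 0.579) in stimulated DCs. Fkbp4, the immunophilin that opposes Fkbp5 at the receptor, was 0.41 ± 0.13 (SE) higher in naïve at-risk DCs with a limma adjusted p of 0.162, a difference that was 0.20 without AF79 (9.64, against 10.27 and 10.29 on the other naïve normal arrays), and 0.02 ± 0.06 (SE) in stimulated DCs with 0.875.

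Hsd11b1, the enzyme that regenerates active glucocorticoid inside cells, fell with allergen in both maternal groups. The naïve normal arrays lay between 9.89 and 10.16 and the stimulated normal arrays of Set 1 between 8.71 and 9.31, and limma gave -0.98 ± 0.12 (SE, adjusted p = 6.2e-05). In at-risk pups naïve arrays lay between 9.51 and 9.74 and stimulated arrays between 8.66 and 8.91, with a change of -0.78 ± 0.11 (SE, adjusted p = 0.00025). It was the only gene of the receptor list past the threshold in these comparisons, where 11.5% of all probe sets passed in normal and 7.88% in at-risk pups. Between stimulated maternal groups it differed by -0.28 ± 0.08 (SE), with a limma adjusted p of 0.072 over both sets, and by -0.39 ± 0.09 (SE) in Set 2 alone, where it passed at 0.037.

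In stimulated at-risk against normal DCs, 2 of 33 induced genes rose and 1 fell, where 1.31% of all probe sets rose and 0.415% fell. Mt2, a metallothionein that binds zinc, read 9.76, 9.44, 9.79 and 9.98 in normal and 10.22, 10.89, 9.97 and 10.16 in at-risk arrays of Set 1. In Set 2 it read 8.94, 8.63, 8.52 and 8.61 in normal and 10.63, 9.30, 10.23, 9.46 and 9.01 in at-risk arrays. At-risk arrays were all higher in Set 2, and in Set 1 only the lowest (9.97) was within the normal range. Limma gave 0.82 ± 0.20 (SE, adjusted p = 0.039), while Mt1, of the same family, gave 0.04 ± 0.09 (SE, adjusted p = 0.866). The adjusted p for Mt2 ran from 0.024 to 0.098 with 1 array left out, and 9 arrays (AF85, AF88, AF89, AF118 to AF121, AF125 and AF126) each ended the call when left out. It also ended in Set 1 alone (adjusted p = 0.332), in Set 2 alone (0.081), without a term for set (0.258) and with set as a random block (0.056). Hif3a, a regulator of hypoxia responses, rose by 0.51 ± 0.11 (SE, adjusted p = 0.027), with Set 2 arrays between 5.62 and 5.87 in normal and between 6.05 and 6.87 in at-risk DCs. Its call ended without AF89, AF118, AF119 or AF120, where the adjusted p was 0.050 to 0.072, and in Set 1 alone (0.345) and Set 2 alone (0.063). In Set 2 both Mt2 and Hif3a were highest on AF123, which also had the highest platelet (9.52) and erythroid (11.31) means of that set. AF125, the next highest for both genes, had an erythroid mean of 11.18 and a platelet mean of 8.51, where at-risk arrays ran from 8.09 to 9.52. The part of platelets and erythroid cells was not tested. Cebpb, a transcription factor of myeloid and acute phase genes, was the one that fell, with a change of -0.53 ± 0.13 (SE, adjusted p = 0.047), with -0.95 in Set 2 alone and -0.07 in Set 1 alone. Leaving out any of 11 arrays ended that call (AF84, AF88, AF118 to AF121 and AF123 to AF127), with an adjusted p of up to 0.116, as did array weights (0.077) and the lack of a term for set (0.092). Dusp1, the phosphatase that ends MAP kinase signaling, gave -0.23 ± 0.07 (SE, adjusted p = 0.106).

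Of the 22 repressed genes 2 fell and 1 rose in stimulated at-risk DCs, beside 0.415% and 1.31% of all probe sets. The neutrophil chemokines Cxcl2 and Cxcl1 fell, with changes of -1.54 ± 0.28 (SE, limma adjusted p = 0.0095) and -0.48 ± 0.09 (SE, adjusted p = 0.014), and Il12a, a subunit of interleukin 12, rose by 0.41 ± 0.08 (SE, adjusted p = 0.014). The lower Cxcl2 was known when the list was made, so its call is no independent result. The paper names Il12a in its network of transcripts changed in stimulated at-risk DCs, so that call is no independent result either. Cxcl2, Cxcl1 and Il12a all missed the threshold in Set 1 alone and without a term for set (adjusted p of 0.15 to 0.30 in the latter). The maternal effect differed between sets for 8 of these 22 genes and for Cebpb, Foxo1 and Dnajb1, where 1.79% of all probe sets differed. Markers of other cells moved with these values. In Set 2 alone 5 of 6 T cell, 4 of 4 NK cell and 2 of 6 macrophage genes fell in at-risk DCs and 6 of 6 platelet genes rose, while in Set 1 alone 0 genes of these 4 lists passed. The T cell mean of Set 2 was 8.97 to 9.09 in normal and 8.19 to 8.60 in at-risk DCs, the NK cell mean 10.84 to 10.95 and 9.74 to 10.24, and the macrophage mean 11.96 to 12.05 and 11.27 to 11.72. In the test of the difference between sets, 4 of 6 platelet genes were higher, and 3 of 6 macrophage and 2 of 4 NK cell genes lower, in Set 2. The part of these cells was not tested. The medians were -0.05 for the receptor list, -0.05 for induced and -0.14 for repressed genes, beside -0.01 for all probe sets.

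In naïve DCs, where 0.34% of all probe sets passed (0.102% higher and 0.239% lower), 1 of 33 induced genes fell and 0 rose. This was Irs2, an insulin signaling adaptor (-0.76 ± 0.13 SE, limma adjusted p = 0.022), whose call ended without AF76, AF80 or AF82 (adjusted p of 0.064 to 0.071) and with only the compared groups in the fit (0.161). Of the repressed genes Il6, Cxcl1, Ifnb1 and Cxcl10 were known to be lower when the list was made, so their differences of -1.18, -1.17, -1.05 and -0.63 on the log2 scale are a description with no test. Of the other 18 repressed genes 0 passed. Of the receptor list, 0 of 16 passed in either direction.

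With allergen, 16 of 22 repressed genes fell in normal pups and 0 rose, and 8 fell and 1 (Il12a) rose in at-risk pups. In normal pups, with 1 array left out, Csf2 kept its call in 10 of 15 fits and Il1b in 11 of 15. Their highest limma adjusted p in these fits was 0.140 and 0.086. Of all probe sets 5.76% fell and 5.73% rose in normal pups (11.5% in all), and 3.46% fell and 4.42% rose in at-risk pups (7.88% in all). The 4 genes known to be lower in naïve at-risk than in naïve normal DCs were Il6, Cxcl1, Ifnb1 and Cxcl10. The naïve arrays of both maternal groups are part of these allergen comparisons. All 4 were among the 16 that fell in normal pups, and Cxcl1 and Ifnb1 among the 8 in at-risk pups. Their calls are no independent results. In normal pups the smallest adjusted p by limma were those of Cxcl1 (-3.22 in normal and -2.33 in at-risk pups), Ptgs2 (-1.89 and -1.53), Ccl4 (-2.06 and -1.42), Cxcl2 (-1.85 and -1.92) and Ifnb1 (-1.89 and -0.88). Of the 33 induced genes, 9 fell and 1 rose in normal pups, and 5 fell and 1 rose in at-risk pups. The riser was Mt2 both times, by 0.79 ± 0.19 (SE, adjusted p = 0.012, and 0.057 without AF79) and 1.67 ± 0.18 (SE, adjusted p = 1.9e-05). Those that fell were led by Irs2 (-1.61 in normal and -0.62 in at-risk pups), Nfil3 (-1.41 and -0.86), Cebpb (-1.18 and -0.89) and Mertk (-0.81 and -0.45), with Il7r in both and Lcn2, Cdkn1a, Tgm2 and Sesn1 in normal pups, where Tgm2 and Sesn1 were lost without AF79, and Sesn1 also without AF76, AF85 or AF87. The median of the induced list was -0.23 in normal and -0.13 in at-risk pups and that of the repressed list -0.78 and -0.24, beside 0.00 and -0.01 for all probe sets. Markers of other cells moved with these allergen comparisons. Of 6 neutrophil genes, 4 fell and 0 rose in normal pups (median -0.58) and 0 fell and 1 rose in at-risk pups (median -0.05), and of 6 macrophage genes 3 and 2 fell (medians -0.45 and -0.28). All 4 NK cell genes fell in both maternal groups, as did 6 of 6 T cell genes in normal and 5 of 6 in at-risk pups. All 4 erythroid and 6 platelet genes rose in both, the platelet list by a median of 3.42 in normal and 3.86 in at-risk pups. Their part in these results was not tested.

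**Figure D5:**
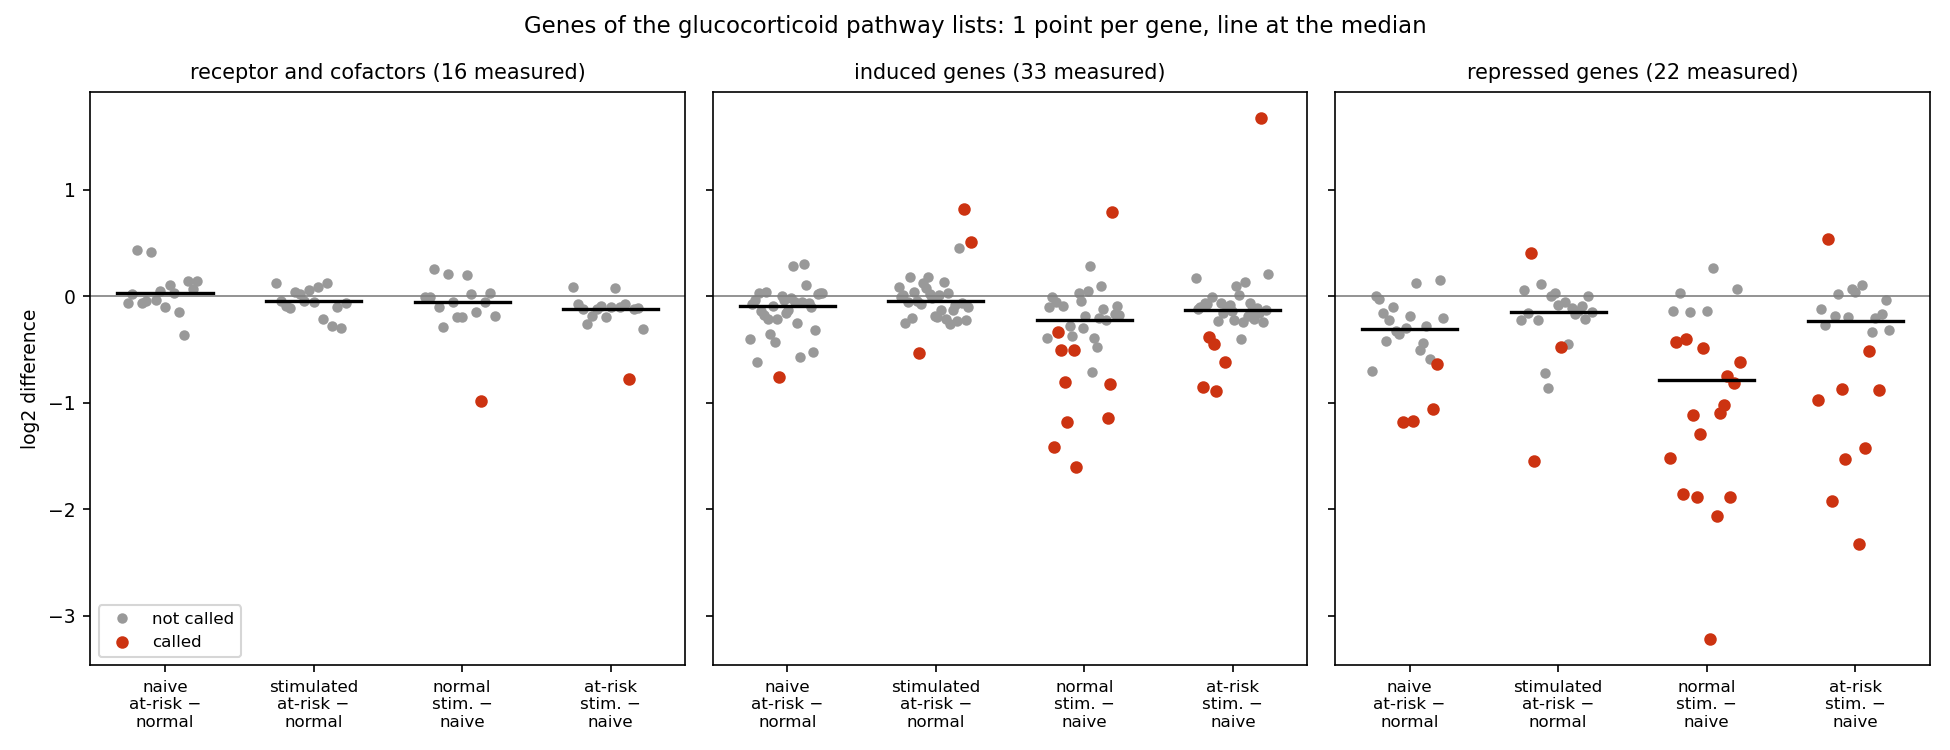
Log2 differences of the genes of the 3 pathway lists (1 point per gene, red where called, grey where not, black line at the median) in 4 comparisons, where the red points of the repressed list in naïve DCs are the 4 genes known to be lower. Most called genes lie below 0, the repressed list in normal pups has the lowest median (-0.78), and Mt2 is the highest point (1.67 in at-risk pups).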

How the data were processed

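The deposited values of the 24 arrays were made by the authors with RMA as a linear intensity per probe set, with a version not given in the sources used here. The methods name separate preprocessing of Set 1 and Set 2, a probe definition built on RefSeq and the loss of 1 array per set, whereas the table holds the manufacturer's probe set names. Log2 was taken with no pseudocount. All columns had a sample, 0 pairs of columns were identical, and precision is limited by the number of arrays (median SD within groups of 0.10 to 0.15 in log2 units).

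With 64 control probe sets removed, 22626 were tested. The platform annotation, which can be old, gave 20380 of them 1 symbol, 691 several and 1555 none. The fits used R 4.3.3 with limma 3.58.1, and tables and plots used Python 3.11.15 (pandas 2.3.3, numpy 2.4.6, matplotlib 3.10.9). Stimulated maternal groups were compared over 17 arrays with set as a term, and the interaction of group and set gave the difference between sets. Naïve and allergen comparisons used the 15 arrays of Set 1, 1 mean per group. A probe set was called when its Benjamini-Hochberg adjusted p over all probe sets was at most 0.05 and its fold at least 1.25.

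The members and lists were chosen with earlier results of these data known. Every member was described by all its probe sets, with the brightest on average standing for the gene. Named beside them were called genes of the pathway lists (up to 8 per list and comparison, by adjusted p), Nr3c1, Hsd11b1, Fkbp4, Dusp1, Mt1 and Mt2, and the 5 genes most like Fkbp5. Other called genes were named after their values were seen. Sequences are from RefSeq on GRCm38.p6.

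The models were tested on simulated data in which 200 of 22626 probe sets changed. The stimulated comparison found 99.5% of changes of 2-fold, with 7 false calls, and 90.5% of changes of 1.5-fold, and the difference between sets found 86.5% and 41.5%. The naïve comparison found 95.0% and 65.5%. The allergen comparisons found 92.5% and 65.0% in normal and 95.5% and 69.5% in at-risk pups. Simulated noise was independent between probe sets, with the same SD in every group, whereas the median SD of the real groups ran from 0.10 to 0.15. Alternatives were other arrays or terms in the fit, set as a random block, further normalizations, removal of the dimmest probe sets (below percentile 40 of mean signal), no fold threshold, other variance models, weights for arrays, 1 probe set for each gene and the loss of each array in turn. Methylation was not analysed here.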

Additional observations from a re-analysis of the deposited data

Results flagged for a closer look

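Among 100 groups of 4 or 5 arrays of the member probe sets, 5 (5.0%) held an array far from the others, about the 1 in 20 that chance flags. Sgk1 read 12.64 on AF121, the lowest of the stimulated normal arrays of Set 2, whose others read 12.82 to 12.83. Klf9 (1428288_at) read 7.53 on AF85, the lowest of the stimulated normal arrays of Set 1, whose others read 7.95 to 8.01, and AF85 also had the highest T cell marker mean of its group. Klf9 1456341_a_at read 5.89 on AF87 in the same group, whose others read 5.17 to 5.26. Per1 read 8.61 on AF88, the lowest of the stimulated at-risk arrays of Set 1, whose others read 9.52 to 9.63. Klf9 1422264_s_at read 3.79 on AF91 in the same group, whose others read 4.15 to 4.20.

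The maternal effect in stimulated DCs differed between the array sets by limma's interaction for 11 genes of the pathway lists. Set 2 minus Set 1 was -1.998 for Cxcl2, -1.65 for Ptgs2, -1.22 for Ccl3, -1.11 for Ccl4, -1.07 for Mmp9, -0.88 for Cebpb, -0.56 for Il1b, -0.48 for Ccl5, -0.44 for Cxcl10, -0.42 for Dnajb1 and 0.47 for Foxo1 in log2 units, with adjusted p between 0.0016 and 0.049. The calls of Ccl5, Cxcl10, Dnajb1, Foxo1, Il1b and Ccl3 were lost when 1 of several arrays was left out (for Ccl3, AF91 alone, with an adjusted p of 0.052). The sets also differ in RNA amplification by the methods, and the part of each cannot be told apart.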

How the results depend on the processing

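No paired analysis was possible because the array numbers are unique and pair no arrays between groups. The count of member probe sets called in stimulated DCs (2) became 0 in Set 1 alone, 1 without a term for set and 1 without dim probe sets, a filter that removes Pdk4, and lay between 1 and 4 with 1 array left out (4 without AF88, 1 without AF85, AF118 or AF119). The share of all probe sets called (1.73%) became 0.119% in Set 1 alone, 4.62% in Set 2 alone, 3.21% with all 24 arrays, 0.535% without a term for set and 0.999% without dim probe sets, and 0.614% to 2.55% with 1 array left out, lowest without AF119, AF120, AF118 and AF121 (0.614%, 0.681%, 0.738% and 0.809%). The 6 pathway genes became 1, 19, 10 and 1 in the first 4 of these settings, and 3 to 9 with 1 array left out (3 without AF118, AF119 or AF120). For the difference between sets, 1.79% became 0.902% to 4.37% with 1 array left out (4.37% without AF125, 2.74% without AF121, and 0.902% to 1.18% without AF84, AF86, AF89, AF90, AF91, AF118, AF119, AF120 or AF126). Its 11 pathway genes became 5 to 14, and its members 0 to 1, which was Pdk4 without AF88 (1.13) and Il1r2 without AF124 (-0.85). The naïve share of 0.34% became 0.0530% with only the compared groups, 0.552% with all 24 arrays and 0.194% to 1.19% with 1 array left out (1.19% without AF77, 0.208% without AF79, 0.194% without AF83). Its 5 pathway genes, of which 4 were known to be lower, became 3 with only the compared groups and 2 without dim probe sets.

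Values that missed the test changed sign for Zbtb16 (0.12) and Ddit4 (0.10) in Set 1 alone, for Klf9 1452723_at (0.0071) and Il1r2 (-0.34) in Set 2 alone, and for Il1r2 with another quantile normalization (-0.0094) and with 1 array left out (-0.061 to 0.089). So did the difference between sets of Per1 without AF88 (-0.129 to 0.215 over all arrays left out) and of Sgk1 without AF123 (-0.074 to 0.032). The 1170 recomputed naïve and allergen differences of the members moved by less than the larger SD of the compared groups. For the loss of 1 array this was fixed in advance, since it moves a group mean by less than that group's SD. No stability can be read from it. Some differences still changed much in size, such as the naïve difference of Klf9 1428288_at (-0.105, and -0.006 without AF76). The cause of these changes was not tested.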
